A study of Mus musculus with 12 samples.

Results

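The 96 gene models described here are stretches of the mouse genome that the authors' assembly listed in addition to the annotated genes. All carry a protein description of retroviral type. Each is called here by the number in its identifier in the authors' table, as in model 471. A model was taken when its description contained Gag, Pol polyprotein, Env, Retrovirus-related or retrovir. They are 96 of the 472 unannotated models and of the 55004 gene models of all kinds in the table. RNA was sequenced from cultures of TM3, a mouse Leydig cell line, and TM4, a mouse Sertoli cell line, both from testis. The TM3 MEHP and TM4 MEHP groups received 100 uM mono-(2-ethylhexyl) phthalate (MEHP), a metabolite of the plasticizer DEHP, for 72 h. The TM3 DMSO and TM4 DMSO groups received only its solvent, 0.1% DMSO, for 72 h, and every group grew in the same serum-supplemented medium. Each of the 4 groups held 3 libraries, and whether those were grown as separate cultures is not labelled, so the p-values may reflect technical spread alone.

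Endogenous retroviruses are the remains of viruses that entered the germline, and they are copied with the genome. An intact copy has a long terminal repeat at each end and 3 genes: gag for the matrix, capsid and nucleocapsid of the particle, pol for protease, reverse transcriptase and integrase, and env for the envelope protein. Mouse copies include gammaretroviruses, related to murine leukemia virus, and betaretrovirus-like elements, such as intracisternal A-particles. In most cells zinc finger proteins with TRIM28, SETDB1 and DNA methylation keep such copies silent. LINE-1 elements are retrotransposons without long terminal repeats, whose second reading frame also codes for a reverse transcriptase.

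By their descriptions 43 models were Pol, 26 Gag, 4 Gag-Pol and 9 Env. The remaining 14 matched the ORF2 protein of LINE-1, which the rule took in through an alternative protein name. Those 14 go against a retroviral label and are called LINE-1 ORF2 models below, leaving 82 models of retroviral type. A p15 matrix domain, found in gammaretroviral Gag proteins, was recorded for 45 models, and a Gag p10 or p24 domain, found in betaretroviral ones, for 7. Just outside the rule lay 3 models described as IgE-binding protein and 2 LINE-1 ORF1 models. Of these, the IgE-binding protein model 479 was at 7.21 ± 0.160 CPM in TM3 with DMSO and 4.09 ± 0.411 with MEHP, and the LINE-1 ORF1 model 458 was at 9.67 ± 1.31 and 8.61 ± 0.648 (mean ± SD, n = 3). CPM is a model's share of its library's counts on a fixed common scale, with the library total scaled by its TMM factor.

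In the mm10 build, 80 models lay on autosomes, 8 on X, 6 on Y and 2 on unplaced scaffolds. Chromosome 13 held 12 and chromosome 5 held 11. Of the 96, 92 were intergenic and 4 shared bases with an annotated exon. Their lengths ran from 434 to 21001 bases with a median of 4541, and 57 had more than 1 exon. Because 36 models overlapped another member, the 96 models made 77 separate loci. Of the 21 overlapping pairs 18 were on opposite strands. All 15 models without a count in any library overlapped another member, and whether the counting used strand is not given in the sources used here. Counts of such overlapping models, and of near-identical proviral copies that can share reads, are uncertain as to which copy was transcribed.

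Library totals ran from 15771908 to 18203115 counts, and a count of 0 allowed a level of up to 0.165 to 0.190 CPM. That limit is the level of 3 counts and reflects only the error of counting. Of 11 Leydig markers looked up, 5 had at most 3 counts in every TM3 library, among them Cyp17a1, Hsd3b1 and Lhcgr. Of 13 Sertoli markers, 4 had at most 3 counts in every TM4 library, namely Wt1, Fshr, Cldn11 and Dmrt1. The summed Sertoli markers reached 108 to 113 CPM in TM4 DMSO cells but 401 to 438 CPM in TM3 DMSO cells, against the label of the lines. Germ cell markers summed to at most 2.95 CPM and leukocyte markers to at most 4.62 CPM in any library.

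The lines stood far apart in the summed RNA of the 96 models, LINE-1 ORF2 models included. In TM3 DMSO the 96 models together held 18821, 18145 and 18144 CPM in replicates 1 to 3, and in TM3 MEHP 22082, 21989 and 22049 CPM. In TM4 DMSO they held 149, 151 and 146 CPM, and in TM4 MEHP 165, 136 and 145 CPM. Every TM3 library was far above every TM4 library, and within TM3 each MEHP library was above each DMSO library. The means were 18370 ± 390 and 22040 ± 47.1 CPM in TM3 with DMSO and MEHP, and 149 ± 2.04 and 149 ± 14.4 CPM in TM4 (SD, n = 3). The models thus took 1.83% of all counts in TM3 DMSO, 2.18% in TM3 MEHP and 0.0145% in TM4 DMSO. The summed level was 1.2-fold that of DMSO with MEHP in TM3, while in TM4 the MEHP and DMSO libraries overlapped. TM4 stood 124-fold lower than TM3 under DMSO and 148-fold lower under MEHP. Without the LINE-1 ORF2 models, the 82 models of retroviral type summed under DMSO to 18307 ± 390 CPM in TM3 and 80.4 ± 3.99 in TM4. For these 82 models TM4 stood 228-fold lower under DMSO and 272-fold lower under MEHP. No test was made of these sums, since the members were chosen with earlier results known. In bulk RNA, fewer cells with such transcripts and less of them per cell cannot be told apart.

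The classes did not share this pattern equally. Under DMSO, Pol models summed to 12910 ± 302 CPM in TM3 cells and 24.3 ± 1.55 in TM4 cells, and Gag models to 5263 ± 91.9 and 35.9 ± 0.346. Gag-Pol models summed to 86.6 ± 8.04 and 0.605 ± 0.261 CPM. Env models summed to 48.3 ± 2.86 and 19.5 ± 3.31 CPM, 2.48-fold lower in TM4. LINE-1 ORF2 models summed to 62.5 ± 4.23 CPM in TM3 cells and 68.1 ± 3.25 in TM4 cells, and the libraries of the lines overlapped. Models with the p15 domain were 1049-fold lower in TM4, at 17032 ± 380 CPM against 16.2 ± 0.494. Models with a p10 or p24 domain were 10.2-fold lower, at 356 ± 22.6 against 35.0 ± 0.598. The other 376 unannotated models summed to 1035 ± 23.8 CPM in TM3 cells and 913 ± 8.94 in TM4 cells under DMSO, 1.13-fold lower.

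**Figure D1:**
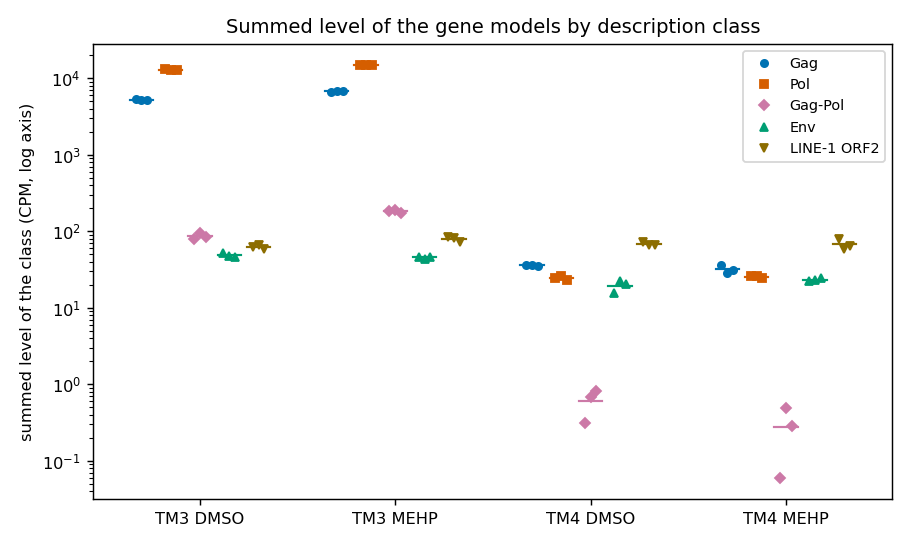
Summed level of each description class in CPM on a log axis, with 1 point per library, 3 per group, and a bar at the group mean. The Pol and Gag means are 12910 and 5263 CPM in TM3 DMSO and 24.3 and 35.9 CPM in TM4 DMSO, while LINE-1 ORF2 stands at 58.1 to 84.5 CPM in every library.

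A pair of loci made up most of the TM3 sum. Model 471 (Y, 43916465 to 43924030, plus strand, intergenic) was described as a Pol polyprotein, the precursor of protease, reverse transcriptase and integrase, and carried a p15 matrix domain. It stood at 9530, 9071 and 9083 CPM in TM3 DMSO and at 10501, 10477 and 10504 CPM in TM3 MEHP. In TM4 it stood at 0.568, 1.64 and 0.316 CPM with DMSO and at 0.889, 0.989 and 0.459 CPM with MEHP. In each TM3 library it was the gene model with the second most counts of all, and it held 47.6% to 50.6% of the sum of the 96 models. Its MEHP libraries in TM3 all lay above the DMSO libraries, but the difference did not pass the test over all libraries (log2 fold change 0.19 ± 0.09 SE, edgeR quasi-likelihood adjusted p = 0.187). It passed when only the 6 TM3 libraries were fitted (edgeR adjusted p = 5.19e-05), with DESeq2 (adjusted p = 0.000757) and without TM4 DMSO replicate 2 (edgeR adjusted p = 0.0307).

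Model 114 (chromosome 14, 32115252 to 32120591, minus strand, intergenic) was described as a Gag polyprotein, the precursor of the particle's structural proteins, with a p15 domain. It stood at 4721, 4572 and 4562 CPM in TM3 DMSO and at 5935, 5989 and 6026 in TM3 MEHP. In TM4 it stood at 2.84, 2.71 and 3.41 CPM with DMSO and at 1.13, 1.54 and 2.12 with MEHP. The treated libraries were all higher than the controls in TM3 and all lower in TM4. Together models 471 and 114 held 74.4% to 75.7% of the sum of the 96 models in the TM3 libraries. Without them the sum was 4524 ± 39.8 CPM in TM3 DMSO, 5563 ± 72.1 in TM3 MEHP and 145 ± 1.76 in TM4 DMSO.

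Per length, expressed as RPKM (CPM per kilobase of the model), model 471 also led in TM3 DMSO at 1220 ± 34.5, followed by model 114 at 865 ± 16.7 and by the Pol models 399 at 254 ± 6.17 and 316 at 158 ± 0.938. After them came the Pol model 11 at 98.5 ± 3.18 RPKM and the Gag model 353 at 85.4 ± 0.477 RPKM. The spreads of neighbouring models in this order did not overlap. Model 353 (chromosome 5, 114889936 to 114895075, minus strand) lay 1861 bases from Oasl2, an interferon-inducible gene. Under DMSO it was at 439 ± 2.45 CPM in TM3 and at 0.378 ± 0.165 in TM4, whereas Oasl2 stood at 13.1 ± 0.778 and 102 ± 5.26.

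The first test asked which models MEHP changed in TM3. After the filter on low counts 72 of the 96 models were tested, and 24 were not. Of the 72, 22 rose and 0 fell (edgeR quasi-likelihood test, Benjamini-Hochberg adjusted p under 0.05 over 15700 gene models). Over all gene models tested 9.04% were called higher and 7.43% lower. The falls were also 0 with DESeq2 and 1 at an unadjusted edgeR p under 0.05, and 1 model, model 227, fell when only the TM3 libraries were fitted. Just outside the rule, the IgE-binding protein models 279 and 479 did fall in TM3. Their log2 fold changes were -0.57 and -0.82 (edgeR adjusted p = 0.00491 and 0.00182). Models 241 and 458, also outside it, were not called (edgeR adjusted p = 0.525 and 0.542), and model 321 had no count in TM3. The median log2 fold change of the 72 was 0.22, against 0.01 over all gene models tested, and 60 values were positive and 11 negative. In 38 of the 72 the TM3 MEHP and DMSO libraries did not overlap, beside 35.4% of all gene models. The count was 17 without TM3 DMSO replicate 1. It was 13 and 12 without TM3 DMSO replicates 2 and 3, and 10, 14 and 13 without TM3 MEHP replicates 1, 2 and 3. Calls over all gene models fell in these fits too. Those higher went from 1419 to between 1009 and 1339, and those lower from 1166 to between 709 and 1055.

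By class and domain, the calls were as follows. Of 34 tested models with a p15 domain 18 rose, and all 34 log2 fold changes were positive, with a median of 0.25. Of the 6 tested models with a p10 or p24 domain 0 were called by edgeR or DESeq2 and 1 was lower at an unadjusted edgeR p under 0.05, and their median was -0.02. Of the 8 tested Env models 0 were called by edgeR or DESeq2 and 0 reached an unadjusted p under 0.05, with a median of -0.45. Of 31 Pol models 13 rose, of 16 Gag models 6, of 3 Gag-Pol models 2 and of 14 LINE-1 ORF2 models 1. Among 215 tested unannotated models outside the set, 10 rose and 7 fell. Whether one class differed from another was not tested.

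**Figure D2:**
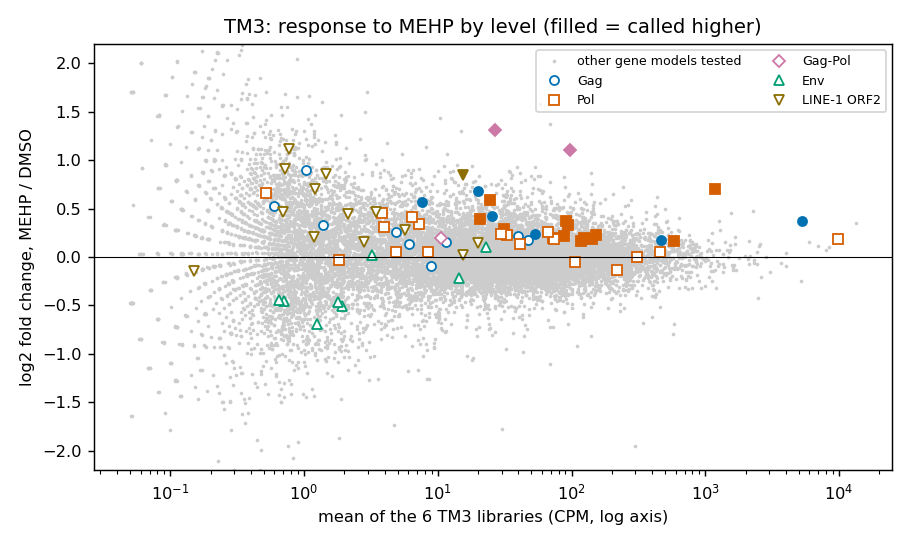
Log2 fold change of MEHP over DMSO in TM3 against the mean CPM of the 6 TM3 libraries on a log axis, with grey points for other gene models tested and coloured symbols for the retroviral and LINE-1 ORF2 models, filled where called higher. The filled symbols are 22 and all lie above 0, led by the Gag-Pol models 288 at 1.31 and 469 at 1.11.

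The models with the largest rises in TM3 were those described as Gag-Pol, the fused precursor that a gammaretrovirus makes by reading through the stop between gag and pol. Model 288 (chromosome 4, 144084548 to 144093214, plus strand, intergenic) stood at 13.9, 18.0 and 14.0 CPM with DMSO and at 39.9, 36.7 and 37.9 CPM with MEHP. Its groups were well apart, with a log2 fold change of 1.31 ± 0.11 (edgeR adjusted p = 4.98e-10). Model 469 (Y, 10703318 to 10709907, plus strand, intergenic) stood at 54.9, 68.9 and 60.3 CPM with DMSO and at 131, 140 and 126 CPM with MEHP. Here too every treated library lay above every control, with a log2 fold change of 1.11 ± 0.11 (edgeR adjusted p = 3.04e-06). The third tested Gag-Pol model, model 346 on chromosome 5, was at 9.93 ± 1.51 and 11.4 ± 2.11 CPM and was not called.

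The Pol model 316 (chromosome 4, 149433510 to 149439200, minus strand, intergenic, 6761 bases from Ube4b) stood at 899, 906 and 895 CPM in TM3 DMSO and at 1473, 1473 and 1441 in TM3 MEHP. The rise was 0.70 ± 0.05 on the log2 scale (edgeR adjusted p = 5.3e-11). For model 114 the rise was 0.37 ± 0.05 (edgeR adjusted p = 8.64e-06). The Gag model 97 on chromosome 13 rose from 15.3 ± 0.855 to 24.6 ± 1.89 CPM, and the Pol model 447 on an unplaced scaffold from 19.6 ± 0.884 to 29.5 ± 1.55 CPM, with no overlap of the groups in either. The LINE-1 ORF2 model 35 (chromosome 10, 79038324 to 79059324, minus strand) rose from 11.1 ± 1.61 to 19.9 ± 3.02 CPM (log2 fold change 0.84 ± 0.16, edgeR adjusted p = 0.00157). Smaller rises of 0.17 to 0.22 were called for models 353, 399, 448 and 450, each of which lost its call without at least 1 of the TM3 libraries. The calls ended without TM3 MEHP replicate 1 for model 353 (0.0769), model 448 (0.109), model 450 (0.162) and model 399 (0.181), as edgeR adjusted p-values. Model 11 (450 ± 14.5 and 466 ± 16.4 CPM) and model 273 (308 ± 15.4 and 309 ± 4.43 CPM) were not called.

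The same test in TM4 gave calls in both directions. Of the 72 models 5 rose and 11 fell, where 15.9% of all gene models tested were called higher and 15% lower. In 19 of the 72 the TM4 groups did not overlap, beside 38.8% of all gene models. The median log2 fold change was -0.08, with 26 positive and 40 negative values. The count of 16 calls was 10 without TM4 DMSO replicate 1, 7 without TM4 DMSO replicate 2 and 10 without TM4 MEHP replicate 1. Over all gene models the 2503 calls higher became 1960, 1766 and 2362 in these fits. The 2353 calls lower became 1912, 1979 and 2311. Of the 34 tested models with a p15 domain, 33 had at least 10 counts in every library of a TM3 group but only 4 did so in TM4, so few could be called there. In TM4 0 of the 34 rose and 2 fell, by edgeR and by DESeq2 alike, and 0 were higher at an unadjusted edgeR p under 0.05. The summed level of the 45 models with that domain was 16.2 ± 0.494 CPM with DMSO and 14.3 ± 1.15 with MEHP.

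Among the models that rose in TM4 was model 168 (chromosome 17, 34996262 to 35000968, minus strand), described as an envelope glycoprotein, which lets a virus bind and enter a cell. It stood at 4.79, 8.54 and 8.08 CPM in TM4 DMSO and at 12.1, 14.1 and 12.6 CPM in TM4 MEHP. The groups did not overlap, and the log2 fold change was 0.85 ± 0.14 (edgeR adjusted p = 3.38e-05). It lies 19 bases from Vars, a gene on the opposite strand for a tRNA ligase, which went from 379 ± 22.4 to 462 ± 20.2 CPM in TM4 and was called higher too (0.29 on the log2 scale, edgeR adjusted p = 0.000111). The part of such neighbours in a model's counts was not tested.

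The LINE-1 ORF2 model 462 (X, 68542095 to 68547142, minus strand) rose in TM4 from 3.85, 3.34 and 4.11 CPM to 8.24, 6.65 and 8.49 CPM (log2 fold change 1.05 ± 0.18, edgeR adjusted p = 2.75e-05). The Pol model 227 (chromosome 19, 9828351 to 9837164, minus strand), whose description names an intracisternal A-particle, rose from 6.05, 7.24 and 6.38 CPM to 8.18, 9.83 and 9.23 CPM. Its change of 0.47 ± 0.10 (edgeR adjusted p = 0.000704) contrasted with TM3, where it stood at 229 ± 12.5 and 210 ± 6.54 CPM. It shares bases with an exon of AC132253.9. The Gag model 342 (4.93 ± 0.840 to 6.96 ± 1.10 CPM) and the Pol model 226 (1.56 ± 0.0964 to 2.36 ± 0.355 CPM) were also called higher. Their edgeR adjusted p-values were 0.0298 and 0.0416, and both lost the call without TM4 MEHP replicate 1, at 0.124 and 0.108. Model 226 lies 44 bases from Ap5b1 on the opposite strand, which rose in TM4 from 1.74 ± 0.0318 to 2.93 ± 0.514 CPM.

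Several of the models that fell in TM4 had few counts there. Model 399 had 15, 26 and 24 counts in TM4 DMSO and 11, 5 and 3 in TM4 MEHP, a log2 fold change of -1.84 ± 0.31 (edgeR adjusted p = 3.27e-05). Model 114 had 45, 48 and 54 counts with DMSO and 19, 28 and 37 with MEHP (-0.89 ± 0.17, edgeR adjusted p = 0.000168). Model 450, whose span on X shares an exon with Btbd35f2, had 1, 4 and 5 counts against 0, 0 and 1, and model 346 had 3, 2 and 5 against 0, 1 and 0. These counts sit at about the limit that a 0 allows, so no fold is given for models 450 and 346. The Env models 463 and 459 on X, described by a match to an intracisternal A-particle envelope, fell from 1.02 ± 0.391 to 0.377 ± 0.159 CPM and from 2.996 ± 0.702 to 1.58 ± 0.111 CPM. Both lost the call without TM4 DMSO replicate 2 (edgeR adjusted p = 0.113 and 0.0795). The Gag model 198 on chromosome 18 fell from 19.5 ± 1.19 to 14.6 ± 2.38 CPM (edgeR adjusted p = 0.0142), but not without TM4 MEHP replicate 2 (0.108).

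**Figure D3:**
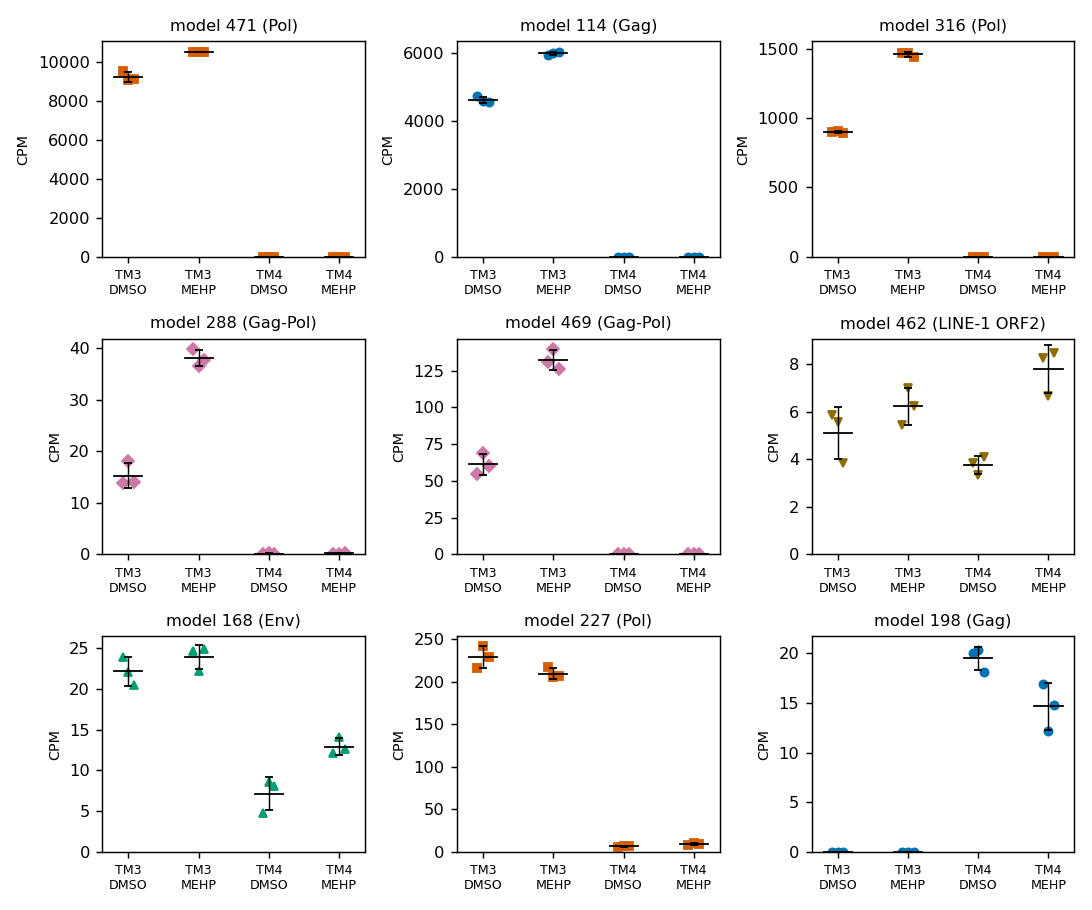
CPM of 9 models in each library, with points for the 3 libraries of a group, a bar at the mean and whiskers of 1 SD, each panel with its own axis from 0. The models 471, 114, 316, 469, 288 and 227 are near 0 in TM4 beside TM3, and model 198 is at 0 in every TM3 library.

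The responses of the lines differed by the interaction test for 13 of the 72 models, 3 with a higher response in TM4 and 10 with a lower one. Over all gene models tested 13% were called higher and 13.3% lower. The higher ones were models 227, 168 and 462, the last of a LINE-1 ORF2. Among the lower ones were model 114 (-1.27 ± 0.18, edgeR adjusted p = 3.84e-06), model 399 (-2.01 ± 0.32, 1.7e-05) and model 316 (-1.43 ± 0.43, 0.0255), given as log2 differences of the TM4 and TM3 responses. For model 316 the TM4 values were 0.380 ± 0.168 and 0.230 ± 0.117 CPM, near the limit of counting, and the call ended without any one of 3 TM4 libraries, DMSO 1, DMSO 2 and MEHP 2 (edgeR adjusted p = 0.0902, 0.183 and 0.132). Model 469, at 0 to 7 counts in the TM4 libraries, was not called (edgeR adjusted p = 0.0651), but it was with DESeq2 (0.00254), with no filter on low counts (0.00177) and without TM3 DMSO replicate 2, TM4 DMSO replicate 1 or TM4 MEHP replicate 2 (0.0257, 0.0179 and 0.00115). Also lower were 4 LINE-1 ORF2 models, models 35, 338, 356 and 456. Of these model 456 on X stood at 0.927 ± 0.306 and 1.50 ± 0.234 CPM in TM3 DMSO and MEHP, and at 11.6 ± 0.556 and 8.55 ± 1.57 CPM in TM4.

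**Figure D4:**
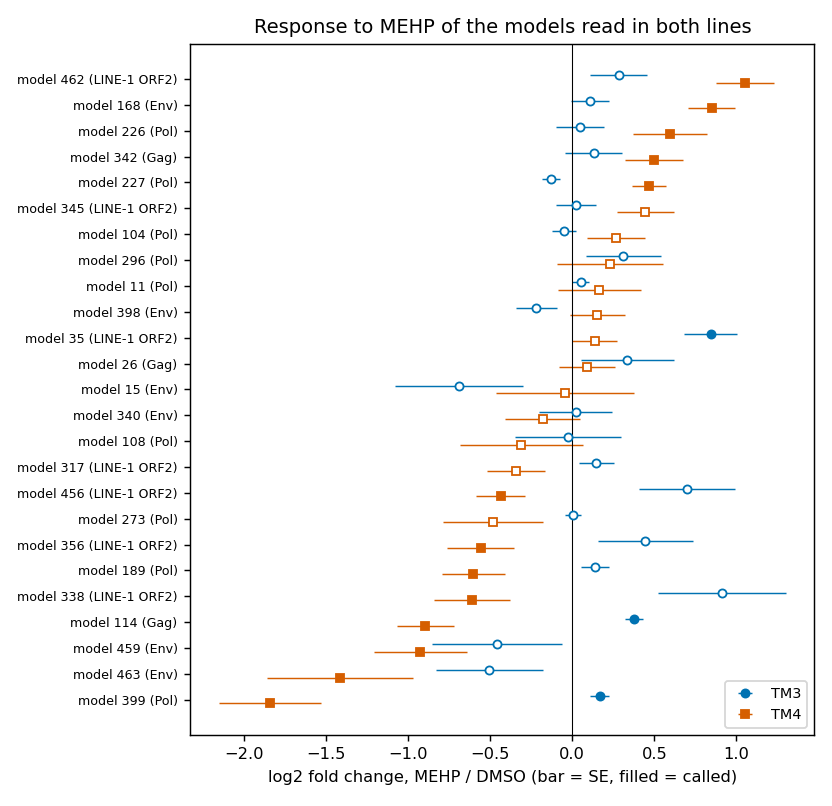
Log2 fold change of MEHP over DMSO in TM3 (circles) and TM4 (squares) for the 25 models with at least 10 counts in every library of a group in both lines, ordered by the TM4 value, with bars of 1 SE and filled symbols where called. In TM3 the called models are models 35, 114 and 399, all above 0, and the TM4 values run from -1.84 for model 399 to 1.05 for model 462.

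Between the lines, most models passed the filter through TM3 alone. At least 10 counts in every library of a group were found for 66 models in TM3 and 28 in TM4, with 25 in both, 41 only in TM3 and 3 only in TM4. A model that passed through 1 line had to differ, so the counts that follow are a description. Under DMSO 57 of the 72 tested models were called lower in TM4 and 9 higher, where 42% and 40% of all gene models were. Under MEHP 58 were lower and 8 higher, beside 40.4% and 39.9%. Of 38 models above 10 CPM in TM3 DMSO, the TM4 DMSO level was between 0% and 37.3% of the TM3 level, with a median of 0.228%. These 38 were picked by their TM3 level, which by itself favours a low TM4 share, so this too is a description. Only 3 models were above 10 CPM in TM4 DMSO.

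Models with low TM4 levels lay on autosomes as well as on Y. Model 18 on chromosome 10 had 44.2 ± 1.40 CPM in TM3 DMSO cells but no count in any TM4 library, at least 242-fold lower against 3 counts per library. Model 97 was likewise at 0 in TM4, at least 83.6-fold lower under DMSO. On Y, the 6 retroviral and LINE-1 models summed under DMSO to 9298 ± 256 CPM in TM3 and 1.26 ± 0.871 CPM in TM4. The 4 annotated Y genes with a mean of at least 100 counts were lower in TM4 as well. The helicase gene Ddx3y went from 414 ± 17.2 to 1.42 ± 0.381 CPM between TM3 and TM4 under DMSO. The demethylase genes Kdm5d and Uty likewise went from 238 ± 17.0 to 0.523 ± 0.0912 CPM and from 131 ± 4.10 to 0.363 ± 0.0424 CPM. Under DMSO Gm47283 went from 102 ± 13.4 to 6.91 ± 1.47 CPM, and it had 51 to 132 counts in the TM4 libraries. The part of the Y chromosome's low reads in the line difference of models 471 and 469 was not tested.

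A few models went the other way. Model 198 (chromosome 18, minus strand), described as a retrovirus-related Gag polyprotein with a p10 domain, stood at 19.99, 20.4 and 18.1 CPM in TM4 DMSO and at 0 counts in all 6 TM3 libraries. It was at least 108-fold higher in TM4 under DMSO and at least 79.1-fold higher under MEHP. The Gag model 26 (chromosome 10, 8544212 to 8549969, minus strand) had 7.29 ± 0.239 CPM in TM4 and 1.22 ± 0.316 in TM3 under DMSO. The Env model 459 had 2.996 ± 0.702 CPM in TM4 DMSO and 0.826 ± 0.180 CPM in TM3 DMSO. LINE-1 ORF2 models made 5 of the 9 called higher under DMSO, but 8 of the 14 tested were called lower. Over all gene models tested 40% were called higher and 42% lower. The 5 higher LINE-1 ORF2 models included model 35 at 29.7 ± 2.88 CPM in TM4 DMSO and 11.1 ± 1.61 in TM3 DMSO. Model 128 on chromosome 15, also among them, was at 2.72 ± 1.00 and 0.159 ± 0.0901. Model 338 and model 356, which overlap on opposite strands of chromosome 5, were both higher in TM4.

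The models whose levels were most like that of model 471 over the 12 libraries were models 353, 385, 11, 18 and 74, with Pearson correlations of log2 CPM from 0.997 to 0.999. All libraries of a line stand together on both axes, so these values describe the split of the lines. Over the 6 TM3 libraries the same correlations ran from 0.623 for model 11 to 0.945 for model 385.

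Host genes that silence endogenous retroviruses were looked up from a list of 40, of which 39 were tested. In TM3 6 rose and 4 fell with MEHP, where 9.04% of all gene models tested were called higher and 7.43% lower. In TM4 5 rose and 8 fell, beside 15.9% and 15% of all gene models. The maintenance factor of DNA methylation Uhrf1 rose in TM3 from 80.5 ± 4.13 to 110 ± 5.48 CPM (edgeR adjusted p = 3.03e-06), and the chromatin remodeller Hells from 67.1 ± 0.911 to 90.2 ± 6.43 CPM. Asf1b and Chaf1a, histone chaperones, also rose in TM3, by log2 fold changes of 0.47 ± 0.09 and 0.32 ± 0.06. The 4 that fell in TM3, named after their values were seen, were Trim28, the histone methyltransferase gene Ehmt2 and the histone genes H3f3a and H3f3b. Ehmt2 went from 433 ± 7.97 to 380.01 ± 12.4 CPM and H3f3a from 179 ± 5.75 to 144 ± 1.87 CPM. Trim28, a scaffold for silencing factors, went from 481 ± 15.5 to 433 ± 5.68 CPM in TM3 (edgeR adjusted p = 0.0448) and from 384 ± 16.5 to 339 ± 23.3 CPM in TM4 (0.0106). Leaving out single libraries ended its call in TM3 in 6 cases (edgeR adjusted p up to 0.205) and in TM4 without DMSO replicate 2 or MEHP replicate 1 (0.0507 and 0.0634). The TM3 call of H3f3b (0.0486) also ended in 8 such cases (up to 0.303). In TM4 Morc2a and Fam208a, genes of the HUSH silencing pathway, rose from 25.3 ± 2.77 to 42.6 ± 4.11 CPM and from 15.7 ± 1.96 to 25.2 ± 4.62 CPM. Atf7ip, a partner of SETDB1, fell in TM4 from 161 ± 15.5 to 120.5 ± 8.38 CPM, and Cbx5, which codes for a heterochromatin protein, from 418 ± 12.04 to 337 ± 26.8 CPM.

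Between the lines under DMSO 14 of the 39 silencing genes were higher in TM4 and 18 lower, shares near those of all gene models. The methyltransferase gene Dnmt3a was at 242 ± 9.08 CPM in TM3 and at 58.8 ± 3.55 in TM4. Zfp809, whose zinc finger protein binds the primer binding site of murine leukemia virus, stood at 23.7 ± 1.72 and 8.73 ± 0.701 CPM. The HUSH subunit gene Mphosph8 stood at 19.99 ± 0.968 and 82.0 ± 9.69 CPM, and the histone methyltransferase gene Suv39h2 at 4.27 ± 0.0598 and 19.1 ± 2.57 CPM. Members of this list therefore stood on both sides, with a median log2 difference of -0.08.

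Of 22 tested genes that sense foreign nucleic acids, 14 rose with MEHP in TM4 and 1 fell (edgeR), beside 15.9% and 15% of all gene models, with a median log2 fold change of 0.41. In TM3 0 rose and 2 fell by edgeR and by DESeq2, and 6 were higher at an unadjusted edgeR p under 0.05. The interaction test called 7 higher and 3 lower, beside 13% and 13.3% of all gene models. Eif2ak2, the kinase PKR that binds double-stranded RNA, rose in TM4 from 29.5 ± 2.76 to 60.5 ± 4.16 CPM (edgeR adjusted p = 2.25e-12) and stood at 65.8 ± 2.63 and 73.6 ± 2.77 CPM in TM3. Oas3, a sensor of double-stranded RNA, rose in TM4 from 6.91 ± 0.865 to 16.2 ± 1.25 CPM. In TM3 the adaptor gene Myd88 fell from 39.2 ± 2.14 to 27.4 ± 1.11 CPM and the helicase gene Ddx41 from 48.6 ± 2.26 to 35.2 ± 0.936 CPM. Under DMSO, Oasl1 reached 43.6 ± 2.60 CPM in TM4 and 0.0967 ± 0.117 in TM3, and Irf7 reached 15.1 ± 0.439 and 2.56 ± 0.682.

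Restriction factors block steps of the retroviral cycle. Of 21 tested 9 rose and 2 fell in TM4, beside 15.9% and 15% of all gene models, and 4 rose and 3 fell in TM3, beside 9.04% and 7.43%. Bst2, which tethers budding particles, rose in TM4 from 235 ± 12.8 to 338 ± 16.1 CPM and fell in TM3 from 210 ± 12.4 to 168 ± 1.46 CPM, and the responses differed (log2 difference 0.84 ± 0.08, edgeR adjusted p = 1.36e-09). Apobec3, a cytidine deaminase packaged into particles, rose in TM4 from 11.8 ± 1.01 to 16.1 ± 0.910 CPM. Samhd1, which depletes nucleotides, rose in TM3 from 84.7 ± 2.33 to 104 ± 1.60 CPM and fell in TM4 from 220 ± 5.34 to 192 ± 8.25 CPM. Under DMSO Fv1, itself derived from a retroviral gag gene, was at 6.67 ± 0.416 CPM in TM3 and at 1.66 ± 0.419 in TM4.

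Receptors through which retroviruses enter cells were measured for all 6 genes listed. Slc7a1, the receptor of ecotropic murine leukemia virus, rose with MEHP from 83.5 ± 5.90 to 115 ± 0.938 CPM in TM3 and from 218 ± 14.2 to 257 ± 30.2 CPM in TM4. Slc20a1, the receptor of gibbon ape leukemia virus in human cells, was at 12 ± 1.29 CPM in TM3 under DMSO and at 94.3 ± 2.95 in TM4. Genes that mammals derived from retroviral or retrotransposon genes were tested for 8 of 20. In TM3 edgeR called 0 of them, where 9.04% of all gene models tested were called higher and 7.43% lower. DESeq2 called 1 of the 8 lower in TM3, and 3 were lower at an unadjusted edgeR p under 0.05. Peg10, a placental gene of gag and pol origin, was at 3.47 ± 0.385 CPM in TM3 under DMSO and at 243 ± 24.0 in TM4, and fell with MEHP in TM4 to 97.1 ± 11.8 CPM (edgeR adjusted p = 7.45e-13). Rtl1, another gene of this kind, was at 8.35 ± 1.34 CPM in TM3 under DMSO and had no count in the TM4 controls. Syna, whose product syncytin fuses trophoblast cells, stood at 0.236 ± 0.107 and 1.47 ± 0.411 CPM. These genes had no common direction between the lines, with 3 of the 8 higher and 4 lower in TM4 under DMSO. Over all gene models tested 40% were called higher and 42% lower there.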

How the data were processed

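Per the labels' protocols, polyadenylated RNA of 12 libraries was read as paired ends. What the authors deposited is a single table of raw counts for each gene model, with model lengths, descriptions and mm10 coordinates. Tools named, per the submitters' processing notes, are featureCounts 1.5.0-p3, edgeR, DESeq2 1.20.0, StringTie 1.3.3b and HISAT2 2.0.5. For the strand and multi-mapping options, the sources used here name none. Some labels call the lines rat, but the organism field and identifiers are mouse. Placement used GENCODE M21.

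Members and host gene lists were chosen with earlier results of these data known. Models named are the 10 of highest mean CPM, up to 6 each way per comparison with the largest called changes, no overlap of libraries and at least 1 CPM, up to 6 found in only 1 line, and the 5 most like the highest model. Models 241, 279, 321, 458 and 479, outside the set, were chosen after their values were seen. A model's number is that of its identifier in the table. Per host list up to 4 called genes with the largest changes were eligible. edgeR 4.0.16 in R 4.3.3 was fitted once over 12 libraries (TMM, filterByExpr, robust quasi-likelihood F-test, 1 coefficient per group, residual degrees of freedom 8), with Benjamini-Hochberg adjustment over 15700 gene models. SE is the absolute log2 fold change over the root of F. Library totals were 15771908 to 18203115 counts. Replicate numbers were not treated as pairs in the main fit. Alternatives were RLE and upper-quartile factors, other filters, DESeq2 1.42.0, a replicate block, fits of 6 libraries, a threshold of 0.01 and each library left out.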

Additional observations from a re-analysis of the deposited data

Results flagged for a closer look

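For 13 of the 72 tested models the responses of the lines to MEHP differed by the interaction test of edgeR (adjusted p under 0.05). Of these 3 were higher and 10 lower in TM4, where 13% and 13.3% of all gene models tested were. Values are given as the log2 response in TM4 minus that in TM3. The response was higher in TM4 for the Pol model 227 at 0.60, the Env model 168 at 0.74 and the LINE-1 ORF2 model 462 at 0.77. It was lower in TM4 for the Gag model 114 at -1.27 and the Pol models 316 at -1.43, 399 at -2.01 and 189 at -0.74. The Pol model 450 and the Gag-Pol model 346 had at most 5 counts in every TM4 library, so their fitted values of -3.17 and -3.18 depend on the prior count and are neither sizes nor bounds. The LINE-1 ORF2 models 35, 456, 356 and 338 stood at -0.71, -1.14, -1.002 and -1.52, and models 338 and 356 overlap each other. With a single library left out, the calls of models 316, 450, 346, 189, 35, 356 and 462 were each lost in at least 1 case, at edgeR adjusted p-values of 0.0515 to 0.183.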

How the results depend on the processing

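The called models numbered 22 in TM3, 16 in TM4 and 13 for the difference of responses. At an adjusted p under 0.01 they numbered 10, 5 and 6, and with 1 library left out 10 to 24, 7 to 16 and 9 to 13. Over all gene models the 0.01 threshold kept 862 of 1419 calls higher and 630 of 1166 lower in TM3. It kept 1617 of 2503 and 1603 of 2353 in TM4, and 1216 of 2044 and 1372 of 2090 for the difference of responses. Between the lines the 66 calls under DMSO and under MEHP became 65 to 67 and 64 to 68. DESeq2 called 22, 15, 14, 66 and 66 models, and the replicate block 23, 17, 14, 66 and 66. Replicate numbers are shared by the labels of all groups, and deviations of same-numbered libraries correlated at -0.116 to 0.168 (2 of 18 pairs over 0.1). Between TM4 DMSO and TM4 MEHP, equal numbers correlated at 0.168, 0.0502 and 0.158, and unequal ones at -0.164 to 0.00586. Between TM3 DMSO and TM3 MEHP, equal numbers correlated at 0.00954, 0.0415 and 0.0229, and unequal ones at -0.0445 to 0.0241. Whether equal numbers share a culture or day is not labelled, so these values do not settle whether libraries were paired. The block added a call of the response difference of model 469 (edgeR adjusted p = 0.0304). The summed level of MEHP over DMSO in TM3, 0.26 on the log2 scale, was 0.34 without model 471, 0.30 without the 2 highest models (added after the data were seen) and 0.25 to 0.28 with 1 library left out; in TM4 it was -0.08 to 0.06. TM4 over TM3 under DMSO, -6.95, was -5.95 without model 471, -6.79 per model length, -7.00 with 1 model per overlapping group and -6.96 to -6.93 with 1 library left out. The values added after the data were seen were -7.83 without LINE-1 ORF2 models and -4.97 without the 2 highest models. Under MEHP, -7.21, the values were -6.29, -8.09 and -5.25 without model 471, the LINE-1 ORF2 models and the 2 highest, and -7.29 to -7.15 with 1 library left out. For LINE-1 ORF2 models TM4 over TM3 under DMSO turned from 0.12 to -0.42 without model 35 and to -0.83 per model length. Depth limits models under 0.190 CPM.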
